A study of Homo sapiens with 6 samples.

Results

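The genes described here build and run the primary cilium. They are 53 genes of intraflagellar transport (IFT), the BBSome, the transition zone, the basal body and the traffic of ciliary membrane proteins, taken by symbol from a list of known cilium genes that was drawn up with earlier results of these data known. All 53 were found among the 28181 genes listed in each file. By known role they fall into 10 groups: 6 genes of IFT-A, 9 of the IFT-B core, 6 of peripheral IFT-B, 2 of the dynein-2 motor, 7 of the BBSome, 3 of the BBS chaperonin complex, 2 ARL GTPases, 12 of the transition zone, 4 of the basal body and 2 of membrane trafficking.

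The primary cilium is a solitary, non-motile projection built on a modified centriole, the basal body, and most mesenchymal cells can form one when they stop dividing. IFT-B trains carry tubulin and other cargo to the tip under kinesin-2, IFT-A trains bring material back under dynein-2 and admit membrane proteins, and the BBSome takes receptors out of the cilium. The transition zone at its base works as a gate, and Hedgehog and platelet-derived growth factor receptors are among the signalling proteins that work there. RNA levels do not show whether a cell carried a cilium, and cilia were not counted here.

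RNA-seq libraries of 2 groups, 3 in each, were compared, to ask how forced expression of SHC4, an adaptor protein of the SHC family, altered gene expression. UE7T-9 cells are mesenchymal stem cells of human bone marrow that keep dividing because they carry hTERT and the E7 gene of a human papillomavirus, and both groups share these alterations. The UE7T-9 SHC4 group (genotype SHC4-OE) was infected with lentivirus that carries the SHC4 coding region in a vector with a CMV promoter and a puromycin marker, and the series calls these cells clones. The labels of the UE7T-9 Cont group, called the controls below, read Nontarget and WT, while the methods describe the same vector with GFP. Cells of both groups were kept in DMEM, to which the methods add fetal bovine serum for UE7T-9 cells. The confluence at harvest, and whether serum was withdrawn before it, are not given, and cilium formation depends on both. The titles call the 3 libraries of a group bio reps, but whether they came from separate infections, clones or cultures is not given either. The p-values therefore measure only the spread between these samples, whatever a bio rep was here. In RNA from whole cultures, fewer cells of a kind and less RNA per cell cannot be told apart.

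The authors deposited normalized counts, in which the reads of a gene are divided by a size factor of the library. Depth ranged from 18144993 to 27721397 reads, and 3 reads corresponded to a normalized count of 2.50 to 3.53. SHC4 itself stood at 56.5, 157 and 130 in the controls and at 134870, 119166 and 155006 in the SHC4 libraries, as the labels say. UE7T-9 Cont replicate 1 stood apart from the other controls. Across genes it correlated more closely with UE7T-9 SHC4 replicates 1 (Pearson's r 0.9745), 2 (0.9692) and 3 (0.9684) than with UE7T-9 Cont replicates 2 (0.9668) and 3 (0.9622). The 6 mesenchymal stem cell markers were all present, with a summed normalized count of 66416 to 74613 in the controls and 75245 to 85845 in the SHC4 libraries. The 6 hematopoietic and endothelial markers in the files summed to 153 to 177 and 133 to 194, with PTPRC and CDH5 at or near 0, and the 4 epithelial markers summed to 36.5 to 65.3 and 19.1 to 75.6, with EPCAM near 0. The 8 markers of motile multiciliated cells in the files summed to 146 to 212 in the controls and 174 to 215 in the SHC4 libraries. Among them FOXJ1, the factor that switches on the motile programme, had normalized counts of 0 to 5.89, and DNAH9 of 0 to 1.97. CCDC40, given below, had more. PECAM1, an endothelial marker, had 7.80, 11.8 and 12.8 in the controls and 9.67, 36.6 and 38.4 in the SHC4 libraries, and KRT14, a keratin, 7.80, 0 and 0 against 14.1, 1.66 and 6.99, with overlap in both.

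As a set, the cilium genes were expressed, and most had a somewhat higher mean in UE7T-9 SHC4, yet none passed the test by itself. All 53 passed the filter on low values (mean normalized count 1 or more), and 52 had a mean of at least 50, BBS1 being the exception. The fold change was measured on the log2(normalized count + 1) scale with limma across all 23040 genes tested, with its standard error (SE). On that scale 40 members were above 0 and 13 below, with a median of 0.17 and a range of -0.29 to 0.76. Among all genes tested, 49.7% were above 0 and the median was -0.00, and of genes with a mean of at least 50, 50.1% were above 0. The size factor matters here, since scaling by total reads moved the median of all genes to -0.10, and then 33 members were above 0 and 20 below, with a median of 0.07, where 40.3% of all genes were above 0. With TMM normalization, 41 members and 50.6% of all genes were above 0.

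With Benjamini-Hochberg adjustment over all genes tested, limma called 0 of the 53 members at an adjusted p below 0.05, where it called 0.0651% of all genes (15 of 23040, or 47 genes with the replicate number as a block) and 0.0947% of those with a mean of at least 50. The smallest adjusted p of a member was 0.200 (BBS12). DESeq2 and edgeR on the recovered reads also called 0 members, against 4.14% and 0.0694% of the genes to which they gave an adjusted p, and their smallest adjusted p-values were 0.0789 and 0.167. At an unadjusted limma p below 0.05 there were 15 members (28.3%), all of them higher in UE7T-9 SHC4, against 7.47% of all genes higher and 6.96% lower. Expressed genes reach this limit more often: of 12678 genes whose mean was at least 50, 10.1% were higher and 8.76% lower at that p. In 14 members the 3 UE7T-9 SHC4 libraries all lay above the 3 controls, and in 0 members all below, against 9.13% and 10.2% of all genes, or 11.2% and 12.2% of genes with a mean of at least 50. For each of those 14 the exact permutation test over libraries gave a two-sided p of 0.1, the smallest that 3 libraries against 3 allow. The tilt of the IFT genes was already known when the list was drawn up, so these counts are a description.

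The count of 15 members depends on which libraries are kept. It was 5 (9.43% of members) without UE7T-9 Cont replicate 2, UE7T-9 SHC4 replicate 2 or UE7T-9 SHC4 replicate 3. Of all genes, 5.42%, 4.004% and 4.83% were higher at an unadjusted p below 0.05 in those fits. Without UE7T-9 Cont replicate 3 it was 8 (15.1%), against 5.29% of all genes. The share of all genes thus also fell from the 7.47% found with all libraries. Under library size scaling the count of members was 6, where 4.93% of all genes, and 6.28% of those with a mean of at least 50, were higher at that p. With TMM normalization it was 15, against 7.81% of all genes and 10.7% of those with a mean of at least 50. Without UE7T-9 Cont replicate 1, 14 members were higher and 3 lower at an unadjusted p below 0.05, where 11.2% of all genes were higher. In that fit limma called 3 members at an adjusted p below 0.05, namely IFT140 (0.0128), DYNC2H1 (0.0200) and IFT172 (0.0491). That is 5.66% of the members, beside 5.68% of all genes called in the same fit and 2.99% called higher (5.03% of genes with a mean of at least 50), so the share of members lay near the background.

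**Figure D1:**
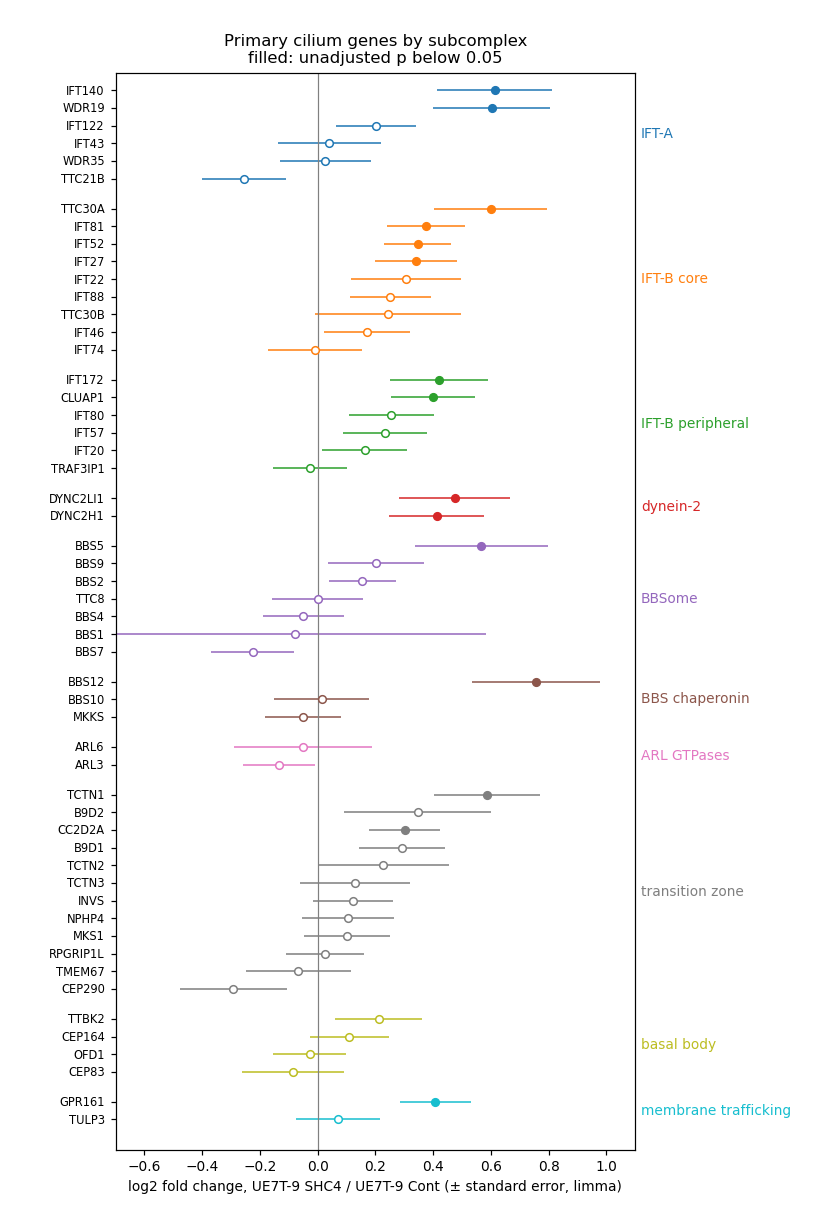
Log2 fold change of each of the 53 members (UE7T-9 SHC4 over UE7T-9 Cont, horizontal axis, limma on log2(normalized count + 1)) with its standard error, grouped by subcomplex. Filled points mark the 15 members with an unadjusted p below 0.05, all of which are above 0, and BBS12 has the highest value at 0.76. The lower end of the error bar of BBS1 lies outside the axis.

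**Figure D2:**
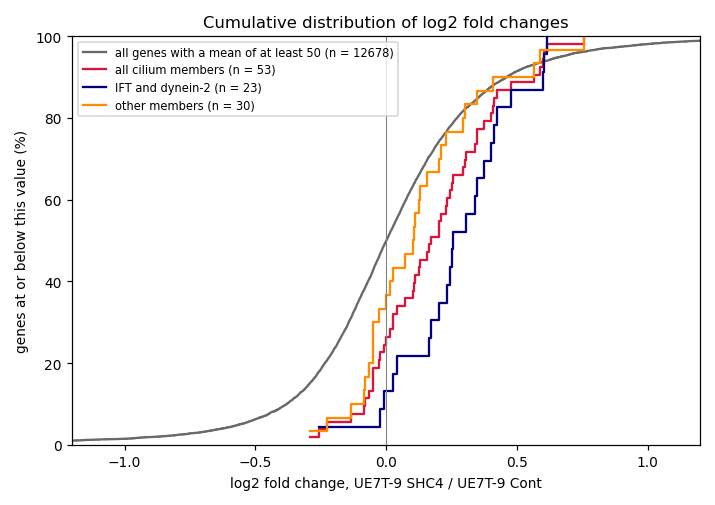
Cumulative share of genes (vertical axis, percent) against the log2 fold change (horizontal axis, UE7T-9 SHC4 over UE7T-9 Cont) for the 53 members, their 23 IFT and dynein-2 genes, the 30 other members and the 12678 genes with a mean of 50 or more. The 23 transport genes lie to the right, with a median of 0.26 against 0.10 for the other members and 0.00 for the expressed genes, while the upper tails meet.

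A minority of the cilium genes hold a known promoter motif. RFX transcription factors bind the X-box, an imperfect inverted repeat, in the promoters of many ciliary genes. Promoter sequences from 250 bases before to 50 bases after the transcription start were available from RefSeq (GRCh38.p14) for 47 of the 53 members, and were searched on both strands for the X-box, with a spacer of 0 to 3 bases, and for its arm GTTGCC, which X-box matches may contain. An X-box match was present in 7 of 47 members (14.9%), against 439 of 27305 genes (1.61%), and GTTGCC in 22 of 47 (46.8%) against 14.6% of genes. The share of genes was taken over all genes with a promoter sequence, expressed here or not, and was not matched for level. The 7 matches are shown in windows of 30 bases, with the match in capitals, and the other members with a promoter sequence held none.
IFT122, chr3:129440205-129440234, plus strand: catgtacGTTGCCAGGGGTAACgcaggtag
TTC30A, chr2:177618719-177618748, minus strand: gttgccctGTTGCCGTGGTAACcgcacgca
IFT57, chr3:108222406-108222435, minus strand: gtccggtgGTCGCCTGGTAACcggtcgtgg
TCTN1, chr12:110614121-110614150, plus strand: ctgtcgcgGTTGCCGGGCAACgcgctgtcc
TCTN3, chr10:95694121-95694150, minus strand: cactgacgGTTGCCAGGCAACggaggcacg
B9D1, chr17:19378085-19378114, minus strand: ctgggactGTTACCTTGGCTACtggctccc
B9D2, chr19:41364136-41364165, minus strand: agcctgctGTTGCCCCAGCAACaaccacgg

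All 7 of these genes had a log2 fold change above 0, under library size scaling too. Most of the 53 members did so with or without a match, 40 of them on the deposited scaling and 33 under library size scaling. The values were 0.20 for IFT122, 0.60 for TTC30A, 0.23 for IFT57, 0.59 for TCTN1, 0.13 for TCTN3, 0.29 for B9D1 and 0.35 for B9D2. Only TTC30A and TCTN1 had an unadjusted limma p below 0.05, as had 28.3% of all members. By group, 4 of 10 transition zone genes with a promoter entry held a match and 0 of 6 BBSome genes did. A match is a run of letters and was not shown to be bound in these cells, and whether matches go with higher levels was not tested.

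IFT-A, the return and membrane-entry complex, had 5 of 6 genes above 0 and a median log2 fold change of 0.12, with 3 of 6 above 0 and a median of 0.02 under library size scaling. IFT140 (chromosome 16, 1510427 to 1612110, minus strand), a core subunit, had normalized counts of 632, 421 and 365 in the controls and of 635, 757 and 725 in the SHC4 libraries. The lowest SHC4 library lay just above UE7T-9 Cont replicate 1, and the groups did not overlap. The means were 473 ± 141 and 706 ± 62.9 (SD, n = 3 each), for a log2 fold change of 0.61 with an SE of 0.20 (limma adjusted p = 0.227).

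WDR19 (chromosome 4, 39182404 to 39285810, plus strand), another core subunit, stood at 1039, 1116 and 714 in the controls and at 1126, 1602 and 1612 in the SHC4 libraries. Again UE7T-9 SHC4 replicate 1 was the lowest of its group, barely above the highest control. The means were 956 ± 213 and 1446 ± 278 (SD, n = 3 each), for a log2 fold change of 0.60 with an SE of 0.20 (limma adjusted p = 0.242). WDR19 also had the highest level per kb of exon in IFT-A, with a mean normalized count of 135 per kb.

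TTC21B, a peripheral IFT-A subunit chosen after its values were seen, was the IFT-A gene below 0. Its normalized count was 583, 698 and 760.4 in the controls and 510, 583 and 611 in the SHC4 libraries, a log2 fold change of -0.26 with an SE of 0.15 (limma unadjusted p = 0.112), and the groups overlapped. A ratio of genes inside a library does not depend on its size factor. WDR19 over TTC21B was 1.78, 1.60 and 0.939 in the controls and 2.21, 2.74 and 2.64 in the SHC4 libraries, and IFT140 over TTC21B was 1.08, 0.604 and 0.480 against 1.25, 1.30 and 1.19. These ratios set the highest IFT-A genes over the lowest and were picked with the values known, so their separation follows from that choice. The other 3 IFT-A genes (IFT122, IFT43 and WDR35) had log2 fold changes of 0.03 to 0.20 with overlapping groups.

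The IFT-B core, the backbone of the outbound train, had 8 of 9 genes above 0 on the deposited scaling and under library size scaling, and medians of 0.31 and 0.20. In 5 of the 9 the SHC4 libraries all lay above the controls, against 9.13% of all genes and 11.2% of those with a mean of at least 50. IFT52 (chromosome 20, 43590931 to 43647296, plus strand), a central core subunit, had normalized counts of 741, 668 and 698 in the controls and of 904, 860 and 913 in the SHC4 libraries. Libraries of the same group lay close together and a clear gap separated the groups. The means were 702 ± 36.8 and 892 ± 28.5 (SD, n = 3 each), for a log2 fold change of 0.35 with an SE of 0.12 (limma adjusted p = 0.237), at 314 normalized counts per kb of exon the highest level of the core.

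TTC30A (chromosome 2, 177612992 to 177618966, minus strand), a subunit wound around IFT52, stood at 99.4, 107 and 102 in the controls and at 131, 164 and 178 in the SHC4 libraries. Here too the groups were apart, with tight controls and wider SHC4 libraries. The means were 103 ± 3.89 and 158 ± 24.2 (SD, n = 3 each), for a log2 fold change of 0.60 with an SE of 0.19 (limma adjusted p = 0.226). TTC30B, its paralog nearby (177548998 to 177553014), had 96.5, 76.5 and 63.0 in the controls and 74.7, 107 and 97.8 in the SHC4 libraries, a log2 fold change of 0.24 (SE 0.25) with overlapping groups. The genes share 1029 of their 25-base words, 17.3% of those of TTC30A and 25.8% of those of TTC30B, so reads may have been split between them. Their sum, which such splitting leaves alone, was 196, 184 and 165 in the controls and 206, 271 and 276 in the SHC4 libraries, without overlap on the deposited scaling. How reads that match both genes were counted is not given, and reads left out of both would be missing from the sum too.

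Of the remaining core genes, IFT81, which helps bind tubulin, and IFT27, a small GTPase of the train, had unadjusted p-values below 0.05 and log2 fold changes of 0.37 and 0.34. IFT88, whose loss blocks cilium assembly, stood at 232, 250 and 252 in the controls and at 293, 281 and 299 in the SHC4 libraries, without overlap, but its change was small (log2 fold change 0.25, SE 0.14, unadjusted p = 0.105 from limma). These 3 were chosen after their values were seen. IFT22, IFT46 and IFT74 had log2 fold changes of -0.01 to 0.31 and overlapping groups.

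Peripheral IFT-B, which links the train to kinesin-2 and membrane cargo, had 5 of 6 genes above 0 and a median of 0.24, or 0.14 under library size scaling. CLUAP1 (chromosome 16, 3500924 to 3539048, plus strand), a subunit that contacts kinesin-2, had normalized counts of 335, 281 and 289 in the controls and of 359, 411 and 424 in the SHC4 libraries, and the groups did not overlap. Its log2 fold change was 0.40 with an SE of 0.15 (limma adjusted p = 0.271), and 16.2% of its exon bases are shared with other annotated genes. IFT172 (chromosome 2, 27444371 to 27489789, minus strand), the largest subunit, stood at 671, 463 and 493 in the controls and at 653, 817 and 689 in the SHC4 libraries. UE7T-9 Cont replicate 1 lay inside the range of the SHC4 libraries, so the groups overlapped. The log2 fold change was 0.42 with an SE of 0.17 (limma adjusted p = 0.306), and 0.58 without that library. IFT57, the most abundant of the group per kb of exon (192), had 737, 578 and 681 in the controls and 683, 799.9 and 864 in the SHC4 libraries, a log2 fold change of 0.23 with overlap. IFT80, IFT20 and TRAF3IP1 had log2 fold changes of -0.03 to 0.26 and overlapping groups, and 35.7% of the exon bases of IFT80 are shared with other annotated genes.

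Both genes of dynein-2, the motor of the return trip, had unadjusted limma p-values below 0.05, although neither was free of overlap. At that p 7.47% of all genes, and 10.1% of those with a mean of at least 50, were higher. DYNC2H1 (chromosome 11, 103109410 to 103479863, plus strand), the motor heavy chain, had normalized counts of 1521, 1040 and 1022 in the controls and of 1554, 1619 and 1514 in the SHC4 libraries. UE7T-9 Cont replicate 1 was at the level of the SHC4 libraries and the other controls were well below. The means were 1194 ± 283 and 1562 ± 53.1 (SD, n = 3 each), for a log2 fold change of 0.41 with an SE of 0.16 (limma adjusted p = 0.302). DYNC2LI1 (chromosome 2, 43774039 to 43810010, plus strand), the light intermediate chain, stood at 210, 266 and 296 in the controls and at 294, 355 and 426 in the SHC4 libraries. There UE7T-9 Cont replicate 1 was the lowest library and the overlap came from UE7T-9 Cont replicate 3. The log2 fold change was 0.48 with an SE of 0.19 (limma adjusted p = 0.307).

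**Figure D3:**
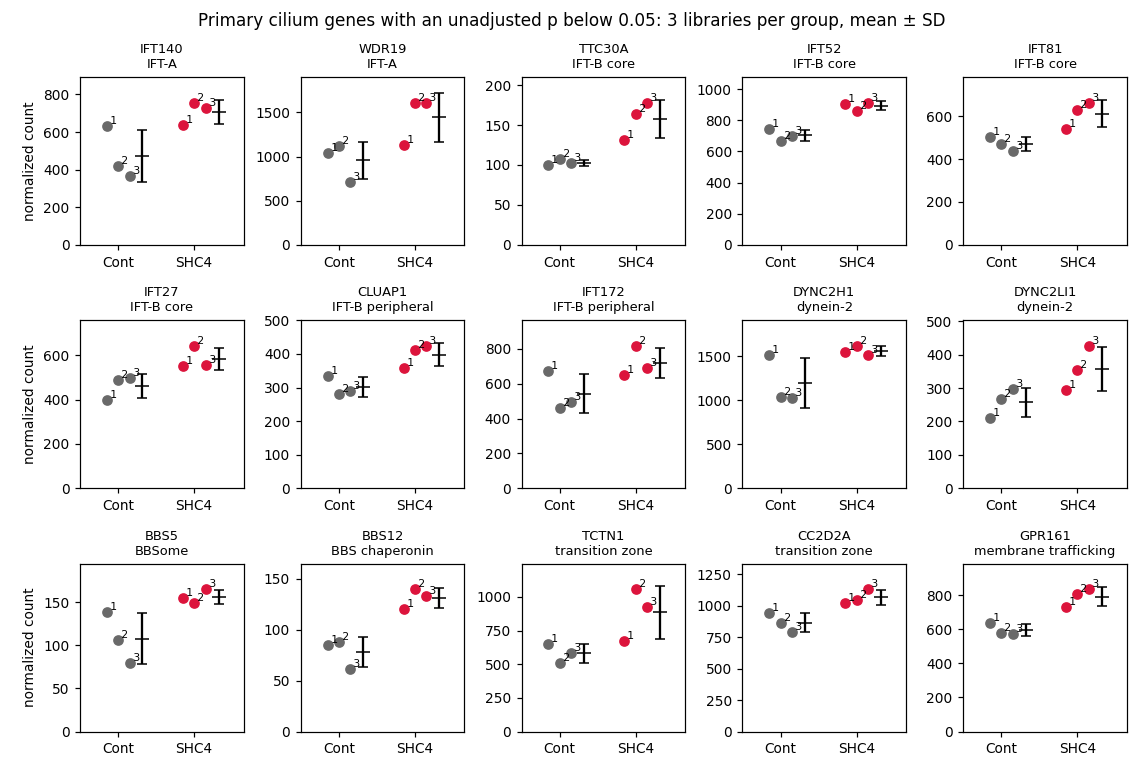
Normalized count (vertical axis, starting at 0) of the 15 members with an unadjusted limma p below 0.05 in each library, numbered by replicate, grey for UE7T-9 Cont and red for UE7T-9 SHC4, with the mean and SD of 3 libraries. UE7T-9 Cont replicate 1 lies inside the SHC4 range in IFT172 (671) and DYNC2H1 (1521) and just below it in IFT140 (632), and IFT52, TTC30A, BBS12 and GPR161 show a gap between the groups.

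The BBSome, the coat that carries receptors out of the cilium, showed no common direction, with 4 of 7 genes above 0 and 3 below. Its median log2 fold change was 0.00, with values of -0.10 under library size scaling and 0.15 in DESeq2. BBS5 (chromosome 2, 169479178 to 169506655, plus strand), a phosphoinositide-binding subunit, had normalized counts of 138, 106 and 79.7 in the controls and of 156, 149 and 165 in the SHC4 libraries. The SHC4 libraries were close to each other and all above the scattered controls. The means were 108 ± 29.4 and 157 ± 8.23 (SD, n = 3 each), for a log2 fold change of 0.57 with an SE of 0.23 (limma adjusted p = 0.309). Of its exon bases, 21.9% are shared with the gene AC093899.2 on the same strand, so the reads of BBS5 are uncertain.

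BBS7, which had the highest level per kb of exon in the BBSome (181), stood at 810.0, 1067 and 959 in the controls and at 729, 801 and 889.7 in the SHC4 libraries, a log2 fold change of -0.22 with an SE of 0.14 (limma unadjusted p = 0.152) with overlap. The ratio of BBS5 to BBS7 was 0.171, 0.0993 and 0.0831 in the controls and 0.214, 0.186 and 0.186 in the SHC4 libraries, again a pair picked after the values were known, so their separation follows from that choice. BBS1 was the member with the lowest level (2.38 normalized counts per kb of exon), at 14.6, 11.8 and 12.8 in the controls and 16.7, 28.3 and 3.49 in the SHC4 libraries. Its exons share 64.5% of their bases with other genes, more than in any other member, so its level is uncertain. BBS2, BBS4, BBS9 and TTC8 had log2 fold changes of -0.05 to 0.20 and overlapping groups.

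Among the 3 chaperonin-like genes that help assemble the BBSome, BBS12 stood alone. BBS12 (chromosome 4, 122732702 to 122744943, plus strand) had normalized counts of 84.8, 88.3 and 61.0 in the controls and of 120, 140 and 133 in the SHC4 libraries. Every SHC4 library lay above every control with a gap between the groups. The means were 78.0 ± 14.9 and 131 ± 9.84 (SD, n = 3 each), for a log2 fold change of 0.76 with an SE of 0.22 (limma adjusted p = 0.200 and 0.0789 from DESeq2). Its partners had differences smaller than their SE: MKKS had 329, 341 and 349 against 325, 314 and 346 (log2 fold change -0.05, SE 0.13), and BBS10 450.4, 560.4 and 555 against 436, 539 and 614 (0.01, SE 0.16, or -0.09 under library size scaling).

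Both ARL GTPases had values just below 0. ARL3, which releases lipidated cargo in the cilium, had normalized counts of 778, 842 and 876 in the controls and of 802, 688 and 786 in the SHC4 libraries, a log2 fold change of -0.13 (SE 0.12). ARL6, which recruits the BBSome to membranes, had 169, 205 and 217 against 134, 245 and 206 (-0.05, SE 0.24). The groups overlapped in both.

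The transition zone had 10 of 12 genes above 0 and a median log2 fold change of 0.13, or 8 of 12 and 0.02 under library size scaling. TCTN1 (chromosome 12, 110614027 to 110649430, plus strand), a tectonic protein of the gate, had normalized counts of 651, 510 and 583 in the controls and of 669.7, 1056 and 928 in the SHC4 libraries. UE7T-9 SHC4 replicate 1 lay close to the controls and the other SHC4 libraries well above them. The means were 581 ± 70.7 and 885 ± 197 (SD, n = 3 each), for a log2 fold change of 0.59 with an SE of 0.18 (limma adjusted p = 0.216). Its relatives differed: TCTN3, at 494 normalized counts per kb of exon the highest level of all members, had 1238, 1578 and 1725 in the controls and 1252, 1848 and 1906 in the SHC4 libraries, a log2 fold change of 0.13 (SE 0.19) with overlap, and TCTN2 a log2 fold change of 0.23 with overlap.

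CC2D2A (chromosome 4, 15469865 to 15601557, plus strand), a gate protein mutated in Meckel and Joubert syndromes, stood at 945, 861 and 794 in the controls and at 1021, 1046 and 1131 in the SHC4 libraries, and the groups did not overlap. The log2 fold change was 0.30 with an SE of 0.12 (limma adjusted p = 0.307). CEP290, the linker between the microtubules and the membrane, had the lowest log2 fold change of all members at -0.29 with an SE of 0.18 (limma unadjusted p = 0.148), a gene picked with its values known. Its normalized counts were 677, 910.0 and 1061 in the controls and 602, 741 and 799 in the SHC4 libraries, with overlap. TCTN1 over CEP290 was 0.961, 0.560 and 0.550 in the controls and 1.11, 1.43 and 1.16 in the SHC4 libraries, a ratio of the highest to the lowest of these genes, whose separation follows from that choice. The 7 further transition zone genes (B9D1, B9D2, INVS, MKS1, NPHP4, RPGRIP1L and TMEM67) had log2 fold changes of -0.07 to 0.35, and among them B9D1 alone had groups that did not overlap.

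Basal body genes were close to level, with 2 of 4 above 0 and a median log2 fold change of 0.04, or -0.06 under library size scaling. TTBK2, the kinase that starts cilium assembly, had normalized counts of 347, 397 and 416 in the controls and of 387, 494 and 466 in the SHC4 libraries (log2 fold change 0.21, SE 0.15). Of its exon bases, 26.2% are shared with other annotated genes. CEP164, which docks the basal body to the membrane, had 778, 898 and 1046 against 963, 982 and 971 (0.11, SE 0.14). OFD1, the member of this group with the highest level per kb of exon (169.5), had 862, 912 and 876 against 769, 878 and 963 (-0.03, SE 0.13). CEP83, a further docking protein, had a log2 fold change of -0.08. All 4 genes had overlapping groups.

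GPR161 (chromosome 1, 168079543 to 168137667, minus strand), a ciliary receptor that keeps Hedgehog signalling low, had normalized counts of 637, 578 and 574 in the controls and of 729, 808 and 836 in the SHC4 libraries. The groups did not overlap and the gap exceeded the spread of the controls. The means were 596 ± 35.2 and 791 ± 55.3 (SD, n = 3 each), for a log2 fold change of 0.41 with an SE of 0.12 (limma adjusted p = 0.205 and 0.109 from DESeq2). TULP3, the adaptor that brings GPR161 into the cilium, had 1575, 1406 and 1207 against 1675, 1398 and 1322, a log2 fold change of 0.07 (SE 0.15), or -0.03 under library size scaling.

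Seen by library, the median deviation of the 53 members from their own means over the 6 libraries, in log2 units, was -0.09, -0.10 and -0.06 in the controls and 0.04, 0.12 and 0.15 in the SHC4 libraries. UE7T-9 SHC4 replicate 1 thus lay nearest to the controls. The summed normalized count of the members was 28458, 28403 and 28115 against 29327, 33181 and 33423. In UE7T-9 SHC4 replicate 1 the median deviation was 0.09 for the IFT-B core, -0.01 for IFT-A, peripheral IFT-B and the transition zone alike, and -0.25 for the ARL GTPases.

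**Figure D4:**
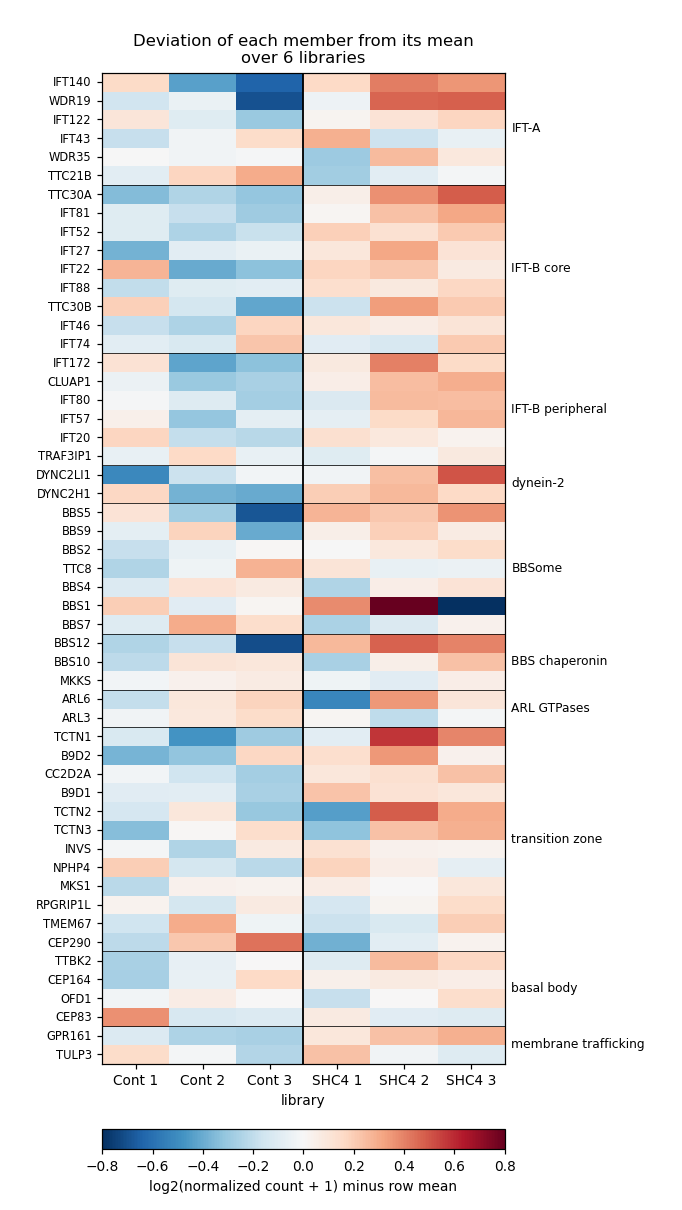
Deviation of each member (rows, grouped by subcomplex) from its mean over the 6 libraries (columns), on the log2(normalized count + 1) scale, blue below and red above. The medians of the SHC4 columns are 0.04, 0.12 and 0.15 and those of the Cont columns -0.09, -0.10 and -0.06. The color scale ends at 0.8 in either direction, which BBS1 exceeds.

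Other cilium genes, listed by role with earlier results known as well, did not share one direction. Of 11 further genes related to IFT, the BBSome, dynein-2 and kinesin-2, 6 were above 0 and 5 below, with a median log2 fold change of 0.05. At an unadjusted limma p below 0.05 there were 2 higher and 2 lower, against 7.47% and 6.96% of all genes. KIFAP3, the cargo-binding subunit of kinesin-2, had 931, 810.0 and 731 in the controls and 1027, 1361 and 1301 in the SHC4 libraries, a log2 fold change of 0.57 with an SE of 0.15 (limma adjusted p = 0.181), and it rose in DESeq2 (adjusted p = 0.0468). WDR60, an intermediate chain of dynein-2, had 372, 358 and 365 against 495, 576 and 440.2, a log2 fold change of 0.45 with an SE of 0.14 (limma adjusted p = 0.216). KIF17, a further kinesin-2 motor, and BBIP1, a small BBSome subunit, lay on the other side at -0.98 and -0.37, both with an unadjusted p below 0.05. These last 2 were chosen after their values were seen.

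Among 10 other transition zone genes, 4 were above 0 and 6 below, with a median of -0.04. AHI1, a Joubert syndrome protein of the gate, had 864, 1153 and 1228 in the controls and 766, 861 and 800.0 in the SHC4 libraries, a log2 fold change of -0.40 with an SE of 0.15 (limma adjusted p = 0.283), and the groups did not overlap.

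Of 17 other basal body and ciliogenesis genes, 12 were above 0, with a median of 0.08. RAB3IP, the exchange factor that activates RAB8 in early cilium assembly, had the smallest p of the lists outside the members. Its normalized counts were 178, 214 and 245 in the controls and 105, 119 and 104 in the SHC4 libraries, well apart. The log2 fold change was -0.94 with an SE of 0.19 (limma adjusted p = 0.116), and it fell in DESeq2 (adjusted p = 0.00299). RABL2A, a GTPase that starts IFT trains, had 104, 138 and 174 against 199, 251 and 203 (0.67, SE 0.22, adjusted p = 0.235 from limma), and its near-identical copy RABL2B may share its reads.

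For the transport of lipidated proteins, 2 of 4 genes were above 0. INPP5E, the phosphatase of the ciliary membrane, had a log2 fold change of 0.28 with an SE of 0.12 (limma adjusted p = 0.330) and UNC119B, a carrier of myristoylated cargo, 0.18 (SE 0.11), both without overlap. The RFX factors gave no common direction, with 3 of 6 tested genes above 0, a median of -0.05 and 0 at an unadjusted p below 0.05 in limma. RFX2 stood at -0.14 (SE 0.19) and RFX5 at -0.12 (SE 0.17).

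Genes of cilium disassembly and inhibitors of assembly had 8 of 11 below 0 and a median log2 fold change of -0.21. Of these genes, 1 was higher and 2 were lower at an unadjusted limma p below 0.05, against 7.47% and 6.96% of all genes. KIF24, a kinesin that holds cilium assembly in check at the centriole, had 336, 285 and 375 in the controls and 225, 235 and 235 in the SHC4 libraries, a log2 fold change of -0.51 with an SE of 0.16 (limma adjusted p = 0.207). HDAC6, a tubulin deacetylase of disassembly, lay on the other side, at 771, 862 and 820.4 against 1022, 1193 and 1001 (0.39, SE 0.12, adjusted p = 0.223 from limma). Neither gene's groups overlapped.

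Proliferation markers lay on the other side of 0 from most members, with 9 of 10 below 0 and a median log2 fold change of -0.32. Their summed normalized count was 33391 to 41599 in the controls and 28402 to 30449 in the SHC4 libraries, and none was at 0. The per-library medians were 0.28, -0.02 and 0.26 in the controls and -0.00, -0.26 and -0.19 in the SHC4 libraries. DESeq2 called 4 of them lower, and limma 0 (4 at an unadjusted p below 0.05): RRM2 (log2 fold change -0.69, DESeq2 adjusted p = 0.0288), CDK1 (-0.50, 0.0332), BUB1 (-0.51, 0.0445) and PCNA (-0.48, 0.0402), with limma adjusted p-values of 0.162 to 0.206. Among all genes given an adjusted p, DESeq2 called 4.14% in either direction. At an unadjusted limma p below 0.05, 6.96% of all genes were lower, and 8.76% of those with a mean of at least 50. The part of cell division in the levels of the cilium genes was not tested. Among mesenchymal markers, PDGFRB, a receptor of platelet-derived growth factor, had 4122, 1487 and 1678 against 6634, 5281 and 5178, a log2 fold change of 1.38 with an SE of 0.33 (limma adjusted p = 0.162), and it rose in DESeq2 (adjusted p = 0.0171). THY1, a surface marker, stood at 7742, 2940 and 2286 against 7845, 9570 and 7512, with UE7T-9 Cont replicate 1 inside the SHC4 range. In all, 5 of 6 mesenchymal markers were above 0 (median 0.23), as were 1 of 5 tested hematopoietic and endothelial markers (median -0.16) and 1 of 4 epithelial markers (median -0.42).

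Markers of motile cilia had low counts and no common direction, with 3 of 7 tested genes above 0 and a median of -0.01. DNAI1, an axonemal dynein chain, had 9.75, 25.9 and 19.7 in the controls and 10.5, 5.83 and 3.49 in the SHC4 libraries, and CCDC40, which spaces the motor arms, 31.2, 54.2 and 45.3 against 47.5, 89.9 and 99.0, and the groups overlapped in both. The summed normalized count of the 8 listed genes was 146 to 212 and 174 to 215.

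**Figure D5:**
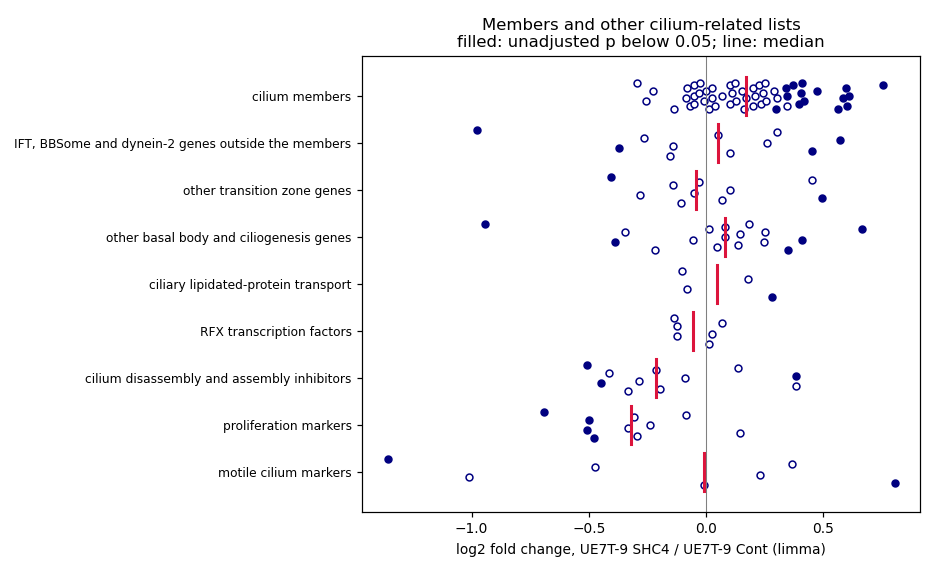
Log2 fold change (horizontal axis, UE7T-9 SHC4 over UE7T-9 Cont, limma) of each tested gene of the members and of 8 other lists (rows), with the median as a red line and filled points for an unadjusted p below 0.05. Vertical offsets within a row only separate points. The median is 0.17 for the members, 0.05 for other IFT, BBSome and dynein-2 genes, -0.21 for disassembly genes and -0.32 for proliferation markers.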

How the data were processed

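For 3 samples a group, total RNA was extracted with an RNeasy kit, made into libraries with the NEBNext Ultra RNA kit and sequenced on an Illumina NovaSeq system by Novogene. The submitters' processing notes name HISAT2 2.0.5, featureCounts 1.5.0-p3 and DESeq2, while the genome build, the annotation and the strand setting are not given in the sources used here. The authors deposited a signal per gene, the read count divided by a size factor per library. Division by the value of 1 read gave whole reads for 100% of values (tolerance 0.01 reads), with depths of 18144993 to 27721397 reads.

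Genes were tested with limma 3.58.1 (trend) on log2(value + 1) in R 4.3.3 for 23040 genes with a mean of at least 1, which left out 5141, with Benjamini-Hochberg adjustment, two-sided. This scale understates the change of genes with few reads. Alternatives were DESeq2 1.42.0 and edgeR 4.0.16 on the recovered reads, TMM normalization, library size scaling, other filters, pseudocount 0.1, a replicate block and leaving out each library. The scripts were tested on simulated counts. Positions and exons came from GENCODE 29 (GRCh38) by Ensembl identifier, and promoters from RefSeq. A level per kb is the mean normalized count over the 6 libraries per 1000 bases of exon. Protein sequences were not used here.

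The members and lists were chosen with earlier results of these data known. Named in each group were the 2 members with the smallest limma p, the member with the highest level per kb, members with an adjusted p below 0.05 in any tool, and TTC30A and TTC30B, and in other lists the 2 genes with the smallest p and those with an adjusted p below 0.05 in limma or DESeq2. Further genes were picked with their values known. Of the genes the rule names, 1 is not reported here.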

Additional observations from a re-analysis of the deposited data

How the results depend on the processing

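The count of all genes called was 15 with limma, and it was 669 with DESeq2, 25 with TMM normalization, 28 with library size scaling, 43 with no filter, 47 with a replicate block and 2 to 1311 with each library left out, the highest without UE7T-9 Cont replicate 1. Members called numbered 0 in every fit that kept all 6 libraries, and were 0 to 3 with a library left out. Under library size scaling, which lowered all genes by a median of 0.10, members higher at an unadjusted p below 0.05 numbered 6, where 4.93% of all genes were higher. The median log2 fold changes under that scaling were 0.0677 for all members, 0.0182 for IFT-A, 0.20 for the IFT-B core, 0.34 for dynein-2, -0.10 for the BBSome, 0.0236 for the transition zone, -0.0619 for the basal body and 0.14 for membrane trafficking. For the BBSome, DESeq2 gave 0.15 and edgeR 0.16, where BBS1 with few reads lay above 0. With each library left out in turn, members higher at that p numbered 5 to 15, where 4.004% to 11.2% of all genes were higher. In those fits the median ranged from 0.14 to 0.23 for all members and from 0.11 to 0.21 for IFT-A. It ranged from 0.27 to 0.39 for the IFT-B core and from -0.007 to 0.12 for the BBSome.

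Among the named members, 5 changed sign, all with values near 0 and the cause not tested. Under library size scaling BBS10 was at -0.0885 and TULP3 at -0.0327. With a library left out, BBS10 ranged from -0.0986 to 0.15, ARL6 from -0.24 to 0.20, TCTN3 from -0.0085 to 0.32, OFD1 from -0.10 to 0.0581 and TULP3 from -0.0302 to 0.16. Whether the replicate numbers pair the libraries was not settled: deviations of same-numbered libraries correlated at 0.148, 0.013 and -0.00696 across all genes tested and at 0.409, 0.146 and 0.149 across genes with a mean of at least 50, but UE7T-9 Cont replicate 2 deviated most like UE7T-9 SHC4 replicate 3 (0.517). With the number as a block, 47 genes and 0 members were called, and 15 members were higher and 1 lower at an unadjusted p below 0.05. In that fit 8.90% of all genes were higher at that p. Genes with few reads, such as BBS1, allow no statement on direction.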
